A study of Macrobrachium rosenbergii with 20 samples.

Results

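The hepatopancreas of adult female giant freshwater prawns (Macrobrachium rosenbergii) was compared with that of adult males through the 5 female and the 5 male hepatopancreas libraries among the 20 libraries of the series, chosen by the sex and tissue in their labels. All animals carried the strain label CMr1 and no treatment was named. RNA was prepared with a directional library kit, and reads were summarised by the authors as estimated counts for 30260 transcripts. The labels do not say whether replicates are separate animals, so p-values measure the spread between these samples. Weight gain labels (unit not stated) ran from 4.33 to 7.21 in females and from 1.61 to 3.69 in males, so weight gain differed along with sex and did not overlap between the groups.

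The hepatopancreas of decapod crustaceans secretes digestive enzymes, absorbs nutrients, stores lipid and glycogen and detoxifies. In females of many decapods it also makes yolk protein precursors that the growing oocytes take up, which makes it a tissue where a sex difference can be looked for. The table pairs no transcript ID with a gene name, so no yolk, digestive or other marker could be looked up, the tissue label could not be checked against markers, and no function is given to any transcript. IDs are therefore printed for only a few transcripts. Near-identical isoforms can share reads in a transcript table, so the value of a single transcript may hold part of a relative's counts. In whole tissue, fewer cells of a type and less RNA per cell cannot be told apart.

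Library totals ran from 9025132 to 15592072 counts in females and from 13910319 to 18355664 in males. Of the 30260 transcripts, 9756 had a count in at least 1 of the 10 libraries and 6239 in all 10. The 6582 transcripts that entered the test held 99.0% to 99.9% of the counts in every library but female 4, where they held 90.8%.

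Males 1 to 4 formed a close group, while male 5 lay about as near the females as the males and female 3 lay apart from every library. Distance between a pair of libraries was taken as the median absolute difference in log2 CPM (CPM, counts scaled to a common library size) over the 6582 transcripts. Each of males 1 to 4 had a median distance of 0.42 to 0.45 to the other males and of 0.69 to 0.79 to the females. Male 5 was about as far from its own sex (median 0.55, range 0.50 to 0.56) as from the females (median 0.53, range 0.51 to 0.70), and its nearest library was male 1 (0.50), just ahead of the nearest female (0.51). Female 3 was far from both, with a median of 0.76 to females and 0.79 to males, and its nearest library was male 5. The other females had a median distance of 0.51 or 0.52 to their own sex and of 0.63 to 0.80 to males. On the first principal component, which held 28.8% of the variance, males 1 to 4 scored between 57.3 and 60.3, male 5 scored -18.8 and the females scored between -68.7 and -29.7. Female 3 was at 110.0 on the second component (21.2% of the variance), and the other 9 libraries lay between -51.6 and 23.5. The weight gain of male 5 was 2.77, within the male range, and its total of 14385283 counts was also within that range.

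**Figure D1:**
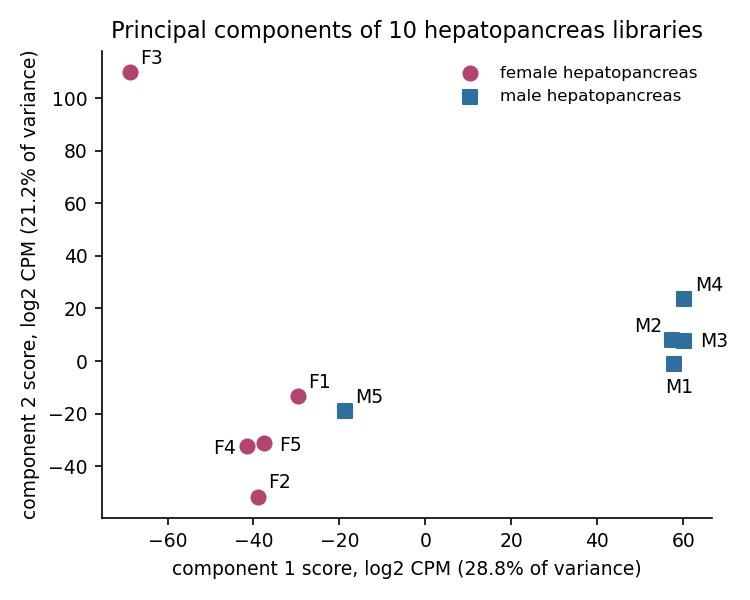
Scores of the 10 hepatopancreas libraries on the first 2 principal components of log2 CPM over 6582 transcripts (circles F1 to F5, females 1 to 5; squares M1 to M5, males 1 to 5). Males 1 to 4 lie together at the right, male 5 lies at -18.8 beside the females, and female 3 is at 110.0 on the vertical axis.

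A small block of transcripts took a large share of the RNA counts in males 1 to 4 and almost none in the other libraries. It holds 23 transcripts that were at 10 CPM or more in each of males 1 to 4 and at least 10-fold higher there than in male 5 and in every female. They were chosen for this pattern after the values were seen, so their hepatopancreas levels are a description, with no test. They took 14.8%, 13.8%, 16.7% and 12.5% of the counts in males 1, 2, 3 and 4. Male 5 held 0.568% and the 5 females between 0.026% and 0.13%. The shares of males 1 to 4 lie close together, with male 5 far below them. Most of the share of male 5 came from 1 transcript, transcript_HQ_Female_transcript1755/f3p0/2534, which took 0.516% of its counts. That the summed share of male 5 was above all females therefore does not describe the block as a whole. The median transcript of the block had a mean of 3624 CPM in males 1 to 4, 3.19 CPM in male 5 and a mean of 4.45 CPM in females. Of the 23, 21 entered the test and 13 were called by edgeR, against 4.39% of all tested. Without male 5, 21 were called, against 11.5% of all tested. The choice of the block made calls likely, so they are no support for it. Of the 23, 4 were also in the set low in female 3 described below.

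The gonads, which the choice of the 23 transcripts did not use, held little of them. They took 0.00918% to 0.0349% of the counts in the 5 ovary libraries and 0.0121% to 0.042% in the 5 testis libraries, and 4 of the 23 were below 1 CPM in all 10 gonad libraries. Their lengths ran from 575 to 2627 bases. Without the condition on male 5 the same rule gave 25 transcripts, 23 of them at least 10-fold lower in male 5 than in the other males, and 1 for which male 5 was also 10-fold above every female. For females, 0 transcripts were at 10 CPM or more in all 5 and 10-fold above every male, male 5 included. When female 3 was left aside there were 2. The rule that gave 25 left male 5 out, so the 25 and these female numbers are not like for like.

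Of the 10 transcripts with the most counts in males, 2 were in this block. The more extreme of these 2, transcript_LQ_Female_transcript23509/f2p0/626, was singled out after its values were seen. It was not called in the fit of 10 libraries (log2 change -11.63 ± 2.98, SE, edgeR adjusted p 0.0527). Without male 5 its edgeR adjusted p was 0.014. It stood at 22753, 13375, 19018 and 21038 CPM in males 1 to 4 and had no count in male 5. The females stood at 0.408, 0.189, 22.6, 0.414 and 0.15 CPM, in the order of their numbers. No ovary library had a count, and testis libraries reached 12.8 CPM.

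Female 3 differed from the other libraries through the near absence of transcripts that elsewhere were among the most heavily counted. In female 3, 103 transcripts were at least 10-fold below every other hepatopancreas library, all of which held 10 CPM or more of them. They took 7.01%, 19.6%, 18.8% and 25% of the counts in females 1, 2, 4 and 5, and between 21.8% and 43.2% in the 5 males. In female 3 they took 0.11%. Ovary (0.267% to 0.482%) and testis libraries (0.104% to 0.16%) were also low, as was female 3. Of the 20 transcripts with the most counts over the 10 libraries, 7 were in this set. For comparison, the same rule found at most 4 transcripts in any other hepatopancreas library.

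The transcript with the most counts over the 10 libraries, transcript_HQ_Female_transcript328/f6p0/3575, was singled out after its values were seen. It stood at 8068, 37125, 19, 37349 and 46289 CPM in females 1 to 5 and at 95811, 163381, 83395, 70923 and 31965 CPM in males 1 to 5. Female 3 was far below all others, male 5 was the lowest male, and the sexes overlapped. The log2 change (female minus male) was -1.79 ± 1.21 (SE), with an edgeR adjusted p of 0.376.

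Female 4 carried a set of transcripts that was nearly missing from the other 9 hepatopancreas libraries and was abundant in testis 5. In female 4, 378 transcripts were at 10 CPM or more and at least 10-fold above every other hepatopancreas library, and they took 16.8% of its counts. In the other hepatopancreas libraries they took 0.0393% to 0.097%. Ovaries held 0.224% to 0.449% and testes 1 to 4 held 0.562% to 0.876%, but testis 5 held 18.0%. Chosen in the same way from the gonads alone, 199 transcripts were at least 10-fold higher in testis 5 than in every other gonad library, and 130 of them were among the 378 (34.4% of the female 4 set and 65.3% of the testis 5 set). Beyond the strain and stage that all samples share, the labels give no property common to female 4 and testis 5. Whether the female 4, testis 5 and male 5 libraries hold only the sex and tissue that their labels give was not tested, so their values are given by label, and counts of calls without female 4 and male 5 are given beside those of the other alternatives. Of the 378, 110 entered the test. Transcripts with counts in females and none in any male numbered 865, of which 645 had counts in a single library; 281 had counts in males and none in any female, 210 of them in a single library.

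**Figure D2:**
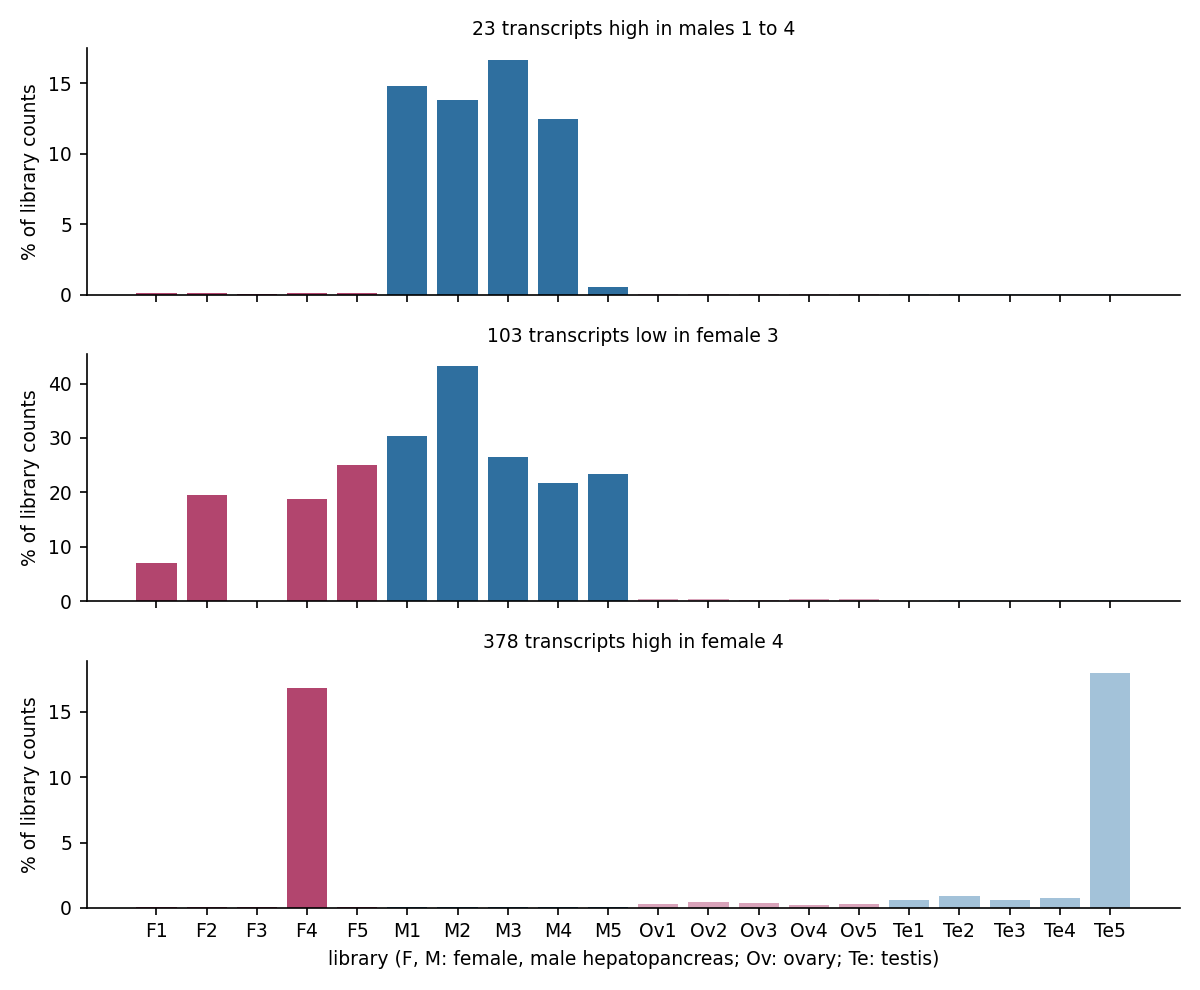
Share of each library's counts, in percent, taken by 3 sets of transcripts: 23 that were high in males 1 to 4 (top), 103 that were low in female 3 (middle) and 378 that were high in female 4 (bottom). Bars are single libraries of hepatopancreas (F, M), ovary (Ov) and testis (Te), with a vertical scale of its own in each panel; the first set falls from 12.5% in male 4 to 0.568% in male 5, and the third reaches 16.8% in female 4 and 18.0% in testis 5.

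Each library was also placed by transcripts that had been selected without it. For each library in turn, the other 9 were tested, the 200 transcripts of smallest p were taken, and the share of them in which the left-out library lay nearer the mean log2 CPM of its own sex was counted. Males 1 to 4 lay nearer the males in 91.0% to 93.5% of their 200 transcripts. Females 2, 4 and 5 lay nearer the females in 90.5%, 90.0% and 85.5%, female 1 in 77.5% and female 3 in 66.5%. Male 5 lay nearer the males in 22.0%. For male 5 the share was 16.2% of the 99 transcripts that were higher in the other males and 27.7% of the 101 that were lower in them. In the 740 transcripts called without male 5, its median position was 0.36 on a scale where 0 is the female mean and 1 the mean of the other males. That position was 0.28 for the 301 called higher in males and 0.44 for the 439 called higher in females. Male 5 thus lay between the sexes and nearer the females, in both directions of difference, at the transcripts that separated the sexes without it. These shares are descriptions of single libraries and carry no test.

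**Figure D3:**
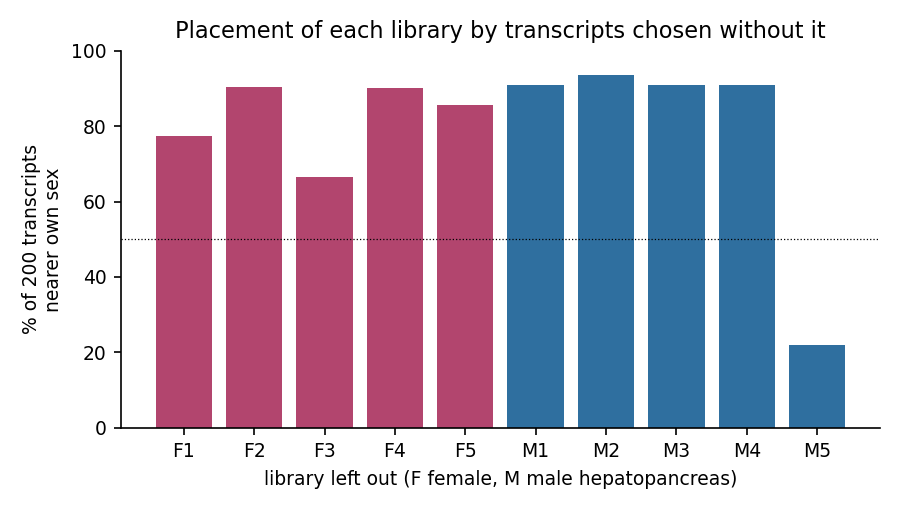
Percentage of 200 transcripts, selected without a library, in which that library lay nearer its own sex's mean log2 CPM (F1 to F5, females; M1 to M5, males; dotted line at 50%). The bars of the other 9 libraries lie between 66.5% and 93.5% and male 5 is at 22.0%.

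Transcripts were called in both directions, and among those called the changes were larger where males were higher. EdgeR called 289 of 6582 transcripts (4.39%), of which 144 (2.19%) were higher in females and 145 (2.2%) were higher in males. The median called transcript was 2.05-fold higher where females were higher and 3.71-fold higher where males were. At least 4-fold fitted changes were found for 16 called transcripts with more in females and 68 with more in males, and at least 8-fold changes for 5 and 37. Over all transcripts tested, whether called or not, 272 were at least 4-fold higher in females and 204 in males. The groups did not overlap for 625 of 6582 transcripts (9.5%), with 368 (5.59%) higher in females and 257 (3.9%) in males, and they did not overlap for 135 of the 144 and 106 of the 145 called.

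The 145 transcripts higher in males held more of the RNA than the 144 higher in females. They took 12.7% ± 5.64 of the counts in males (SD, n = 5) and 1.32% ± 0.244 in females. The lowest male was male 5 at 2.84%, against 13.5% to 16.9% in males 1 to 4. The 144 higher in females took 2.46% ± 0.582 in females and 0.858% ± 0.261 in males, with male 5 again nearest to females at 1.3%. Male 5 was the lowest male for 113 of the 145 and the highest male for 83 of the 144. These shares and counts describe transcripts chosen by the comparison itself, and how often male 5 was an extreme over all transcripts tested was not counted. Among the 155 transcripts with a mean of 1000 CPM or more, 14 were called higher in males and 2 higher in females, and of 777 between 100 and 1000 CPM, 27 and 39. Of the 10 transcripts with the most counts in females, 0 were called by edgeR, and their adjusted p ran from 0.0604 to 0.975. Of the 10 with the most counts in males 1 was called, and 6 transcripts were on both lists.

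Transcripts called higher in females were shorter than those called higher in males. Their median length was 998 bases, against 1916 for those higher in males and 1634 for all tested. Among 1047 tested transcripts under 1000 bases, 72 (6.88%) were called higher in females and 13 (1.24%) higher in males. Among 2084 of 2000 bases or more, 22 (1.06%) and 70 (3.36%) were. The median log2 change (female minus male) of all tested transcripts was 0.31 in the short class, 0.06 between 1000 and 2000 bases and -0.03 in the long class, so the middle of the short class lay toward females. Mean transcript length weighted by counts was 1559, 1599, 1584, 1904 and 1703 bases in females 1 to 5 and 1862, 2054, 1872, 1764 and 1742 bases in males 1 to 5. The groups overlapped through female 4, and the difference of -189 bases (1670 ± 142 against 1859 ± 123, SD, n = 5 each) did not pass the threshold (two-sided exact permutation p 0.0556, adjusted 0.286 over 6 measures). Without the transcript with the most counts in each library the difference was -76.5 bases (exact permutation p 0.31, adjusted 0.619). With offsets that removed each library's trend with length, edgeR called 143 transcripts (2.17%), of which 59 were higher in females, 84 were higher in males and 133 were among the 289. The part of transcript length or RNA quality in the sex difference was not tested.

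**Figure D4:**
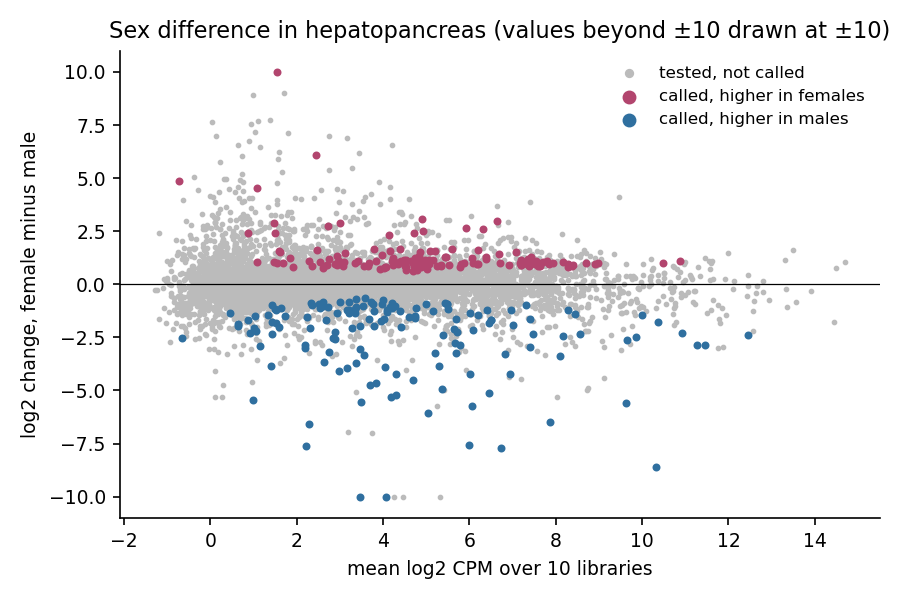
Log2 change (female minus male, vertical) against mean log2 CPM over the 10 hepatopancreas libraries (horizontal) for 6582 transcripts, each a point, coloured where edgeR called it. Called transcripts higher in males (145) reach larger changes than those higher in females (144), and values beyond 10 on the log2 scale are drawn at that limit.

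In the gonads, which did not enter the comparison, most transcripts called higher in female hepatopancreas were also present. Presence meant at least 1 CPM in at least 4 of the 5 libraries of a gonad. Of the 144 higher in females, 136 (94.4%) were present in both ovary and testis and 3 (2.08%) in neither. Of the 145 higher in males, 85 (58.6%) were present in both and 30 (20.7%) in neither. Over all 6582 tested the shares were 75.1% and 13.0%. The medians of mean CPM in hepatopancreas were 32.4 for the first list, 23.5 for the second and 10.3 for all tested. Presence in a single gonad was found for 3 (ovary) and 2 (testis) of the first list and for 11 and 19 of the second.

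The 2 named transcripts higher in females differed in how evenly the females carried them. Transcript transcript_HQ_Female_transcript387/f2p0/3485 had the most counts of the called transcripts higher in females whose groups did not overlap. It stood at 2853, 3053, 3051, 2985 and 2028 CPM in females 1 to 5 and at 1453, 1034, 1345, 1143 and 1498 CPM in males 1 to 5. Every female was above every male, with female 5 the lowest female. The means were 2794 ± 436 and 1295 ± 200 CPM (SD, n = 5 each), and the log2 change was 1.11 ± 0.25 (SE, edgeR adjusted p 0.0426). It was present in both gonads, at 1050 to 2716 CPM in ovary and 688 to 1624 CPM in testis. Male 5 was the highest male for this transcript, close to male 1 and below every female.

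Transcript transcript_HQ_Female_transcript1570/f3p0/2608 had the widest gap between the sexes among those higher in females. It stood at 241, 26.6, 12.1, 19.2 and 14.2 CPM in females 1 to 5 and at 0.649, 0.589, 0.973, 1.03 and 1.34 CPM in males 1 to 5. The groups were clearly apart, and female 1 was far above the other females. The log2 change was 6.07 ± 1.04 (SE, edgeR adjusted p 0.036), and 4.33 without female 1 (adjusted p 0.00396). Gonads of both sexes held more than male hepatopancreas, at 29.9 to 63.4 CPM in ovary and 68.4 to 275 CPM in testis.

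The 2 named transcripts higher in males were nearly missing from the ovary and low in testis. Transcript transcript_HQ_Female_transcript1755/f3p0/2534 had the most counts of those higher in males and belongs to the block of 23. It stood at 91950, 111861, 85583, 46784 and 4318 CPM in males 1 to 5 and at 23.9, 209, 0, 348 and 285 CPM in females 1 to 5. Male 5 was more than 10-fold below the other males and still above every female. It alone took 5.37% ± 3.15 of the counts in males (SD, n = 5), and the other called transcripts higher in males took 7.31% ± 2.95. The log2 change was -8.62 ± 1.99 (SE, edgeR adjusted p 0.0427). Ovary libraries held at most 1.03 CPM and testis libraries at most 42.9 CPM.

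Transcript transcript_HQ_Female_transcript3675/f2p0/2098 had the next widest gap. It stood at 149, 148, 245, 75.3 and 71.3 CPM in males 1 to 5 and at 1.38, 4.03, 8.8, 2.29 and 2.02 CPM in females 1 to 5. Here male 5 was beside male 4, within the male group, unlike its place for the block of 23. The means were 138 ± 70.8 and 3.7 ± 3.01 CPM (SD, n = 5 each), and the log2 change was -5.21 ± 0.64 (SE, edgeR adjusted p 0.036). Ovary libraries held at most 0.309 CPM and testis libraries at most 4.41 CPM.

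**Figure D5:**
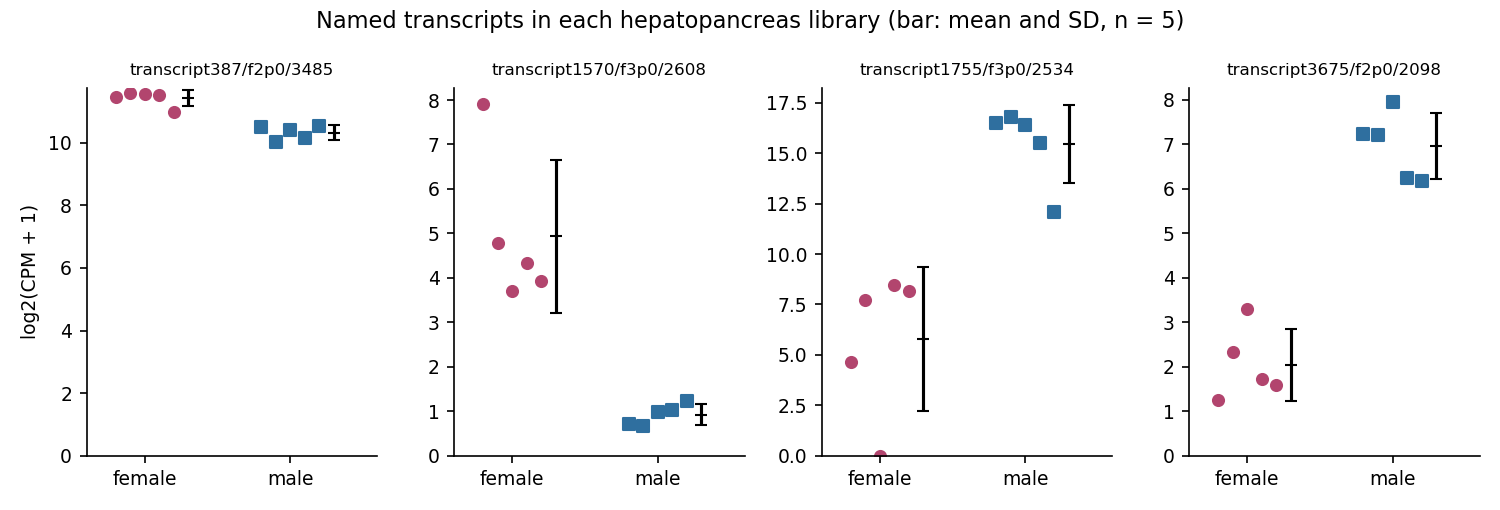
Log2(CPM + 1) of the 4 named transcripts in each female (circles) and male (squares) hepatopancreas library, with the mean and SD (n = 5) beside each group; panel titles give the last part of the transcript ID. In all 4 panels the sexes do not overlap, and the lowest male of the third panel is male 5 at 4318 CPM.

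The calls rested on which libraries were in the fit. All 289 had adjusted p between 0.036 and 0.05. Leaving out male 5 gave 740 calls (11.5% of those tested), which held 286 of the 289, and leaving out female 3 gave 616 (9.59%), which held 276. Leaving out both, an alternative chosen after seeing the data, gave 1185 calls (19.0%), 686 higher in females and 499 higher in males, with 282 of the 289 among them. Leaving out female 3, female 4 and male 5 gave 871 (14.5%). Without female 1 there were 2 calls (0.0308%), and without female 2, 4 or 5 or male 1, 2, 3 or 4 there were 0 in edgeR, with 1352 to 1649 transcripts at an unadjusted p under 0.05. All 289 kept their direction in each of these 10 fits in which they were tested. They had been chosen with the same libraries, so a kept direction was close to given and is no support for the calls. DESeq2 called 1223 (18.6%) and limma voom, which gave its lowest sample weights to female 3 (0.25) and male 5 (0.64), called 985 (15.0%). The 3 tools shared 277 of the 289, 142 higher in females and 135 higher in males. The 4 named transcripts passed the threshold without male 5 and without female 3, transcript_HQ_Female_transcript1570/f3p0/2608 also did without female 1, and none did in the other single-library fits. Adjusted p over the single-library fits ran from 0.00396 to 0.106 for the 4. With weight gain as a covariate edgeR called 0 transcripts (631 at an unadjusted p under 0.05), and over the 289 the median log2 change was 96.9% of its value without the covariate, while the SE was 1.92 times as large. Since weight gain did not overlap between the groups, sex and weight gain cannot be told apart in this fit.

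Of 6 measures of the make-up of the libraries, including the mean length above, none differed between the sexes past the threshold. At an equal depth of 9025144 counts, 7734 ± 556 transcripts were detected in females and 7566 ± 88.3 in males (SD, n = 5 each), and the highest value was 8640 in female 4. The 10 transcripts with the most counts in a library took 27.4% ± 2.12 of counts in females and 29.7% ± 7.5 in males, with 42.4% in male 2. With the 50 leading transcripts the difference (female minus male) was -6.92 percentage points (exact permutation p 0.0476, adjusted 0.167). In females 48.0 ± 12.9 transcripts held 50% of counts, and 33.6 ± 10.4 in males, which is 14.4 more in females (exact permutation test, two-sided, p 0.0952, adjusted 0.286). For 80% of counts it was 146 more in females (exact permutation p 0.0238, adjusted 0.143). Transcripts below 1 CPM in every gonad library took 2.1% ± 0.372 and 2.21% ± 0.203, a difference (female minus male) of -0.109 percentage points. With a limit of 5 CPM that difference was -2.68 percentage points (exact permutation p 0.0556, adjusted 0.167). IDs with the word Male took 8.06% ± 2.84 and 6.26% ± 1.41. That difference of 1.8 percentage points was 0.705 without female 3 and 0.0135 without female 3, female 4 and male 5. Adjusted p for the 6 measures as first defined ran from 0.286 to 0.698, where 5 against 5 samples allow an unadjusted p of 0.00794 at the least.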

How the data were processed

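The deposited table holds, for each library, the estimated count of every transcript as made by the authors, with no scaling. The submitters' processing notes list Bowtie 0.12.2 and DESeq 1.10.1 without saying what each did. How reads were counted and on which transcript set is not given in the sources used here. No ID (0) was found among the 31758 genes of the RefSeq table for assembly ASM4041242v1. The IDs are not written as gene names, so this does not show whether the transcripts are in that assembly.

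Counts were rounded, and female was compared with male by the quasi-likelihood test of edgeR 4.0.16 (R 4.3.3), with TMM scaling on full library sizes. Transcripts needed 10 or more counts in 5 or more of the 10 libraries, and a call needed a Benjamini-Hochberg adjusted p under 0.05. The SE was the size of the log2 change over the square root of F. Hepatopancreas CPM are TMM-scaled, gonad CPM and shares of counts use library totals, and distances and components used log2 CPM with a prior count of 2. Library measures were compared by two-sided exact permutation tests (scipy 1.17.1), adjusted over 6 measures. The procedure was tested on simulated data with no outlying library, so that test does not bear on how the calls depend on single libraries.

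In each direction 2 transcripts were named out of the calls with no overlap between the sexes: the 1 with the highest mean CPM in the higher sex and the 1 with the widest gap in log2(CPM + 1). Transcripts, lists and rules were chosen with earlier results of these data known. Alternatives were DESeq2 1.42.0, its size factors, limma 3.58.1 (voom with sample weights), robust moderation, library totals without TMM, other filters, all 4 groups in 1 fit, the replicate block, weight gain as a covariate, length-corrected offsets and leaving out libraries.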

Additional observations from a re-analysis of the deposited data

Results flagged for a closer look

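For 2 of the 20 groups of 5 libraries looked at (4 named transcripts and 6 library measures in each sex), a single library lay far from the other 4; chance gives such a library in about 1 of 20 groups. For transcript_HQ_Female_transcript1570/f3p0/2608, female 1 held 241 CPM and the other females 12.1 to 26.6 CPM. For transcript_HQ_Female_transcript387/f2p0/3485, female 5 held 2028 CPM and the other females 2853 to 3053 CPM.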

How the results depend on the processing

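Calls for the sex difference numbered 289, 144 higher in females and 145 in males. They numbered 1223 (632 and 591) in DESeq2, 985 (526 and 459) in limma voom, 456 (213 and 243) with a minimum of 50 counts, 143 (59 and 84) with length-corrected offsets, 437 (240 and 197) without female 4 and male 5, 1185 (686 and 499) without female 3 and male 5, and 871 (447 and 424) without all 3 of these. EdgeR called 0 on library totals without TMM (1841 at an unadjusted p under 0.05), without a filter (2058), with weight gain as a covariate (631) and with the replicate block (1361). Same-numbered females and males had correlations of deviations from their group means of -0.07 to 0.09, so the numbers were not taken as pairs. DESeq2 size factors (294), robust moderation (264) and 1 fit of all 4 groups (409) stayed within 1.5 times of the total. Of the 289, they held 286, 264 and 218, so the list itself changed most in the fit of all 4 groups. Leaving out 1 library gave 0 to 740 calls, 0 to 439 higher in females and 0 to 301 in males. The causes were not tested. Library totals moved the median log2 change of all transcripts by 0.44 toward females. All 289 kept their direction there, and the named log2 changes reversed in no alternative. These transcripts had been chosen from the same counts, so kept directions are no support for the calls. Among library measures, the difference in transcripts detected at equal depth (168) turned to -22.4 without female 4 and male 5 and to -147 without female 3 as well, and ran from -58.5 to 281 with single libraries left out. Over all fits that left out libraries, the difference in the share of the 10 leading transcripts ran from -3.99 to 0.819 (turned without male 2) and that of transcripts below 1 CPM in gonads from -0.241 to 0.0426 (turned without female 5). No measure passed the threshold in any alternative, but with libraries left out a measure could not pass alone. The smallest possible exact permutation p was 0.0159 for 4 against 5 libraries and 0.0286 for 4 against 4. Mean length weighted by counts stood at both limits. Its difference was -248 bases without female 4 (exact permutation p 0.0159, adjusted 0.0952) and -277 bases without female 4 and male 5 (p 0.0286, adjusted 0.171). DESeq2 gave no adjusted p for transcript_HQ_Female_transcript1570/f3p0/2608, and the reason was not tested. Its male values rest on 7 to 23 counts per library and its female values on 190 to 2951.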

Other observations

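Male 4 also held transcripts of its own. In male 4, 11 transcripts were at least 10-fold above every other hepatopancreas library and took 7.91% of its counts, against 0.097% to 0.498% in the other 9. Ovaries held 0.122% to 0.239% of them and testes 0.2% to 0.889%. Female 3 had 27 such transcripts, with 1.13% of its counts, and the remaining libraries other than female 4 had 0 to 5.

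Females varied more among themselves than males. The median SD of log2 CPM within a sex, over 6582 transcripts, was 0.63 in females and 0.47 in males, and 66.2% of transcripts had the larger SD in females. Without female 3 and male 5 the medians were 0.49 and 0.41, and the share was 60.4%. For the 20 transcripts with the most counts over the 10 libraries the median SD was 1.4 in females and 0.77 in males. These values are descriptions, with no test.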
